A study of Mus musculus with 12 samples.

Results

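Histone and DNA modifying enzymes were compared between splenic CD8+ T cells given an EZH2 inhibitor and control cells. The set held every listed symbol named Kdm, Kmt, Setd, Hdac, Sirt, Kat, Dnmt, Tet, Prdm, Ehmt, Suv39h, Smyd, Prmt or Nsd plus a number and at most 1 letter, and Suv420h1 and Suv420h2, without Prdm1. These were 97 of 24421 gene symbols, chosen by name and not by value, though with earlier results of these data known. The cells came from C57BL/6 mice and were given DMSO, the solvent control (6 libraries), or an EZH2 inhibitor, here called EZH2i (6 libraries). Which inhibitor was used, at what dose and for how long, any other culture condition and the age of the mice are not stated in the labels. Nor do they tie each library to a mouse or a culture of its own, so p-values measure the spread between libraries, which may be technical.

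EZH2 is the methyltransferase of Polycomb repressive complex 2 (PRC2), which places methyl groups on lysine 27 of histone H3 (H3K27), a mark of silenced genes. Other enzymes write, erase or oppose this and related marks. Histone methyltransferases and acetyltransferases write marks, demethylases, deacetylases and sirtuins remove them, and DNA methyltransferases and Tet oxygenases set the methylation of cytosine. In CD8+ T cells these enzymes are known to shape effector and memory programmes and exhaustion.

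Library totals ran from 17215483 to 28092434 counts in DMSO and from 19610258 to 31206228 in EZH2i. Cd8a, which encodes a chain of the CD8 co-receptor, was at 1040 to 1130 CPM (counts relative to a library size scaled by TMM) in DMSO and at 798 to 924 in EZH2i. The summed level of 5 CD8 and CD3 chain genes was 3000 to 4080 CPM in DMSO and 2220 to 3350 in EZH2i, and 2 of the 5, Cd8a and Cd3g, were called lower. Among markers of other cells, the sums were at most 0.0864 CPM for 5 neutrophil genes and 0.148 for 4 erythroid genes, with Retnlg, Mmp8, Hba-a1, Hbb-bs and Alas2 at 0 in every library. The sum of 3 NK cell genes was 3.76 to 4.94 CPM in DMSO and 6.66 to 12.2 in EZH2i, a rise through Klrb1c. Klre1 was at 3.05 to 4.31 CPM in DMSO and 2.72 to 4.29 in EZH2i, and Ncr1 at 0.119 or less in every library. Sums of 3 further lists came almost wholly from 1 gene each: 3 stroma genes gave 88.6 to 195 CPM in DMSO and 60.2 to 180 in EZH2i (Pecam1), 5 B cell genes 19.2 to 25.2 and 14.9 to 21.9 (Cd79b), and 3 CD4+ T cell genes 2.96 to 8.85 and 6.17 to 9.56 (Foxp3). The sum of 4 dendritic cell genes was 0.179 to 1.58 CPM in DMSO and 1.15 to 3.69 in EZH2i, through Itgax. In whole-population RNA, fewer cells of a type and less RNA per cell cannot be told apart. The libraries numbered 6 in both groups stood apart from the other 10, so the main results are also given with the number as a block or without these 2 libraries.

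Most of the enzymes that could be tested differed little between the groups. Of the 97, 89 passed the filter on low counts. Genes were called at an adjusted p under 0.05 by the quasi-likelihood test of edgeR, with Benjamini-Hochberg adjustment over all 11727 tested genes. Of the 89, 5 were called higher in EZH2i (Hdac11, Hdac9, Kdm5b, Sirt4, Hdac4) and 3 lower (Kdm6a, Sirt1, Dnmt1). That is 5.62% higher, where 13.3% of all tested genes were called higher, and 3.37% lower, where 6.05% of all tested genes were called lower. Upper-quartile scaling gave 6 higher and 0 lower (5 lower at an unadjusted p under 0.05), library totals alone gave 7 and 0 (5 at an unadjusted p), and DESeq2 gave 6 and 6.

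With the replicate number as a block, 18 enzymes were called higher (20.2%, beside 24.7% of all tested genes) and 17 lower (19.1%, beside 24.3%). Without both libraries numbered 6, 18 were higher (20.2%, beside 23.9% of 11764 tested genes) and 16 lower (18%, beside 20.9%). Both fits kept all 5 higher and all 3 lower calls. In each of these fits the shares of enzymes called were below those of all genes. The CPM ranges of the groups did not overlap for 1 enzyme that was higher (Hdac11), which is 1.12% beside 7.5% of all tested genes, and for 3 that were lower (Dnmt1, Sirt1 and Kdm6a), which is 3.37% beside 2.74%.

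**Figure D1:**
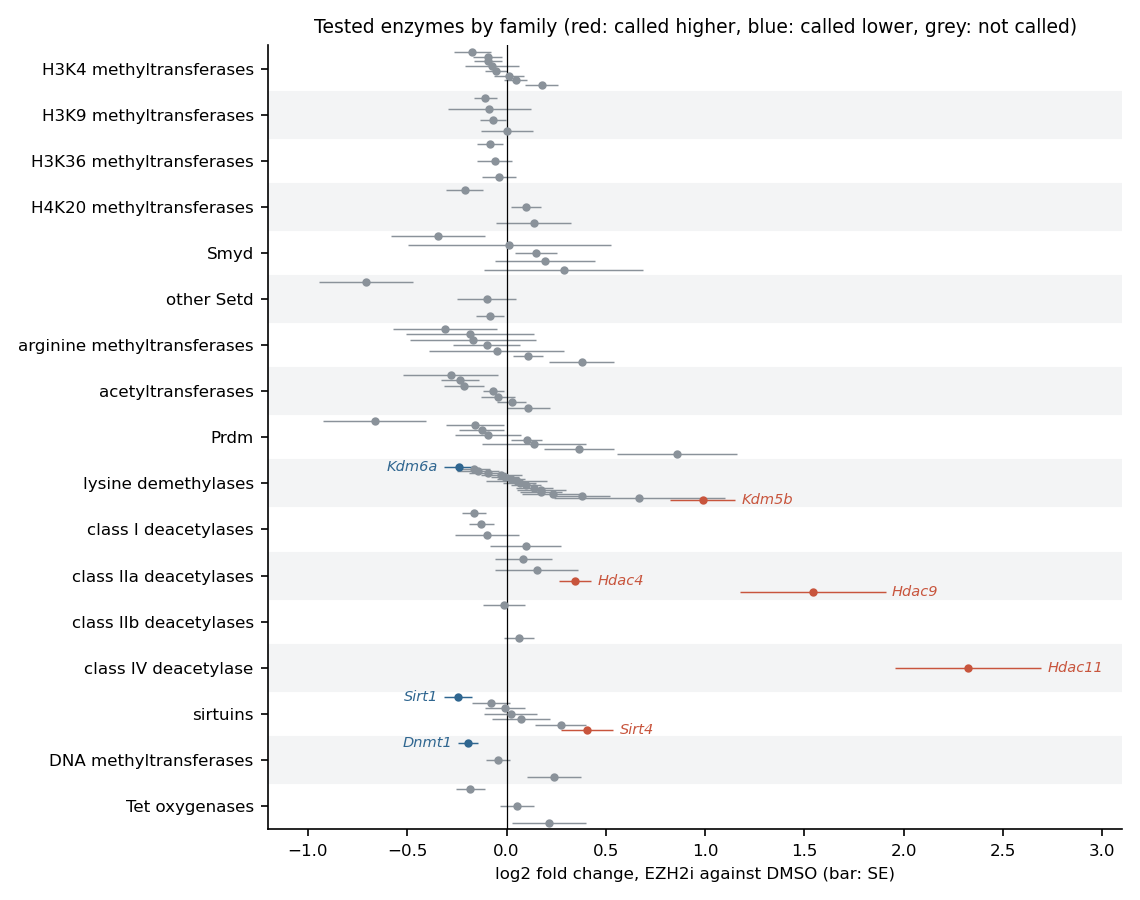
Log2 fold change of EZH2i against DMSO for each of the 89 tested enzymes, grouped by family (rows), with the standard error as a bar. Red points were called higher and blue points lower. Most points lie within 0.25 of 0, and the 2 farthest to the right are Hdac9 at 1.54 and Hdac11 at 2.32.

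The median log2 fold change of the tested enzymes was -0.01, as for all tested genes at -0.01. Its median size regardless of sign was 0.13 for the enzymes and 0.18 for all genes. Of the 89, 72 (80.9%) changed by less than 0.25 on the log2 scale, beside 63.7% of all tested genes. The range ran from -0.71 for Setd6 to 2.32 for Hdac11.

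Calls differed with expression level over all genes, which sets the background for the enzymes. The tested genes were split into 4 bins of equal size by their mean CPM over all libraries. In the lowest bin (0.318 to 8.61 CPM), 3 of 12 enzymes were called higher and 0 lower, where 30% of genes were higher and 0.887% lower. Hdac9 and Hdac11, 2 of those 3, entered the tested set through the group where they were high, so this count is no support for a pattern among the enzymes. In the next bin, 2 of 24 enzymes were higher, beside 13.9% of genes. In the bin from 30.5 to 77.7 CPM, 1 of 17 enzymes was lower, and in the highest bin 2 of 36, beside 7.88% and 11.7% of genes. The median log2 fold change of all genes ran from 0.37 in the lowest bin to -0.11 in the highest.

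**Figure D2:**
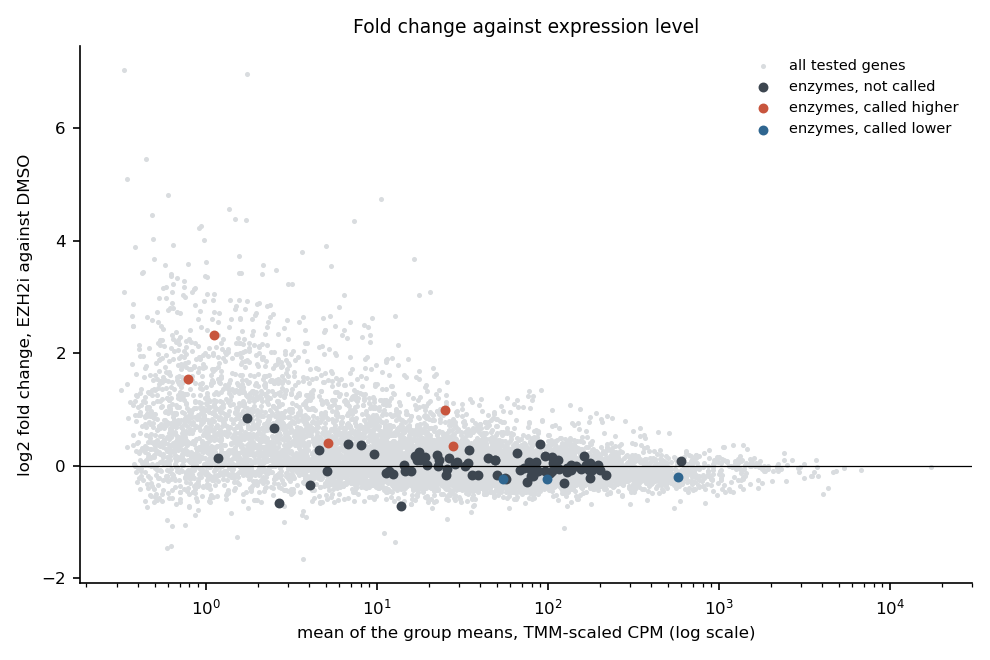
Log2 fold change of EZH2i against DMSO (vertical axis) against expression level, the mean of the group means in TMM-scaled CPM on a log axis, for all 11727 tested genes (grey) and the 89 tested enzymes (coloured). The called higher enzymes lie to the left of the called lower ones: Hdac9 had 0.392 CPM in DMSO and Dnmt1 608.

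Among the erasers of acetylation, Hdac11, the sole class IV deacetylase, and Hdac9 and Hdac4, which belong to class IIa, were called higher. That is 3 of 11 tested deacetylases higher and 0 lower (1 lower at an unadjusted p under 0.05, and 1 by DESeq2), or 4 and 1 with the block. Hdac11 and Hdac9 lie in the lowest expression bin, where 30% of all genes were called higher, and they passed the filter through the EZH2i libraries, so nothing about the family is read from this count. Class IIa enzymes have weak activity of their own and act as signal-dependent corepressors that bring class I enzymes to transcription factors.

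Hdac11 (GRCm38 chr6:91156665-91174692, plus strand) was at 0.0596, 0.354 and 0.693 CPM in DMSO (lowest, median and highest library) and at 0.960, 1.89 and 2.69 in EZH2i. Every EZH2i library was above every DMSO library. The summed counts were 50 in DMSO and 297 in EZH2i. The means were 0.365 ± 0.214 and 1.87 ± 0.583 CPM (SD, n = 6), a log2 fold change of 2.32 (SE 0.37, adjusted p = 0.000648). For Hdac11 and for Hdac9, 6 of 6 EZH2i libraries reached the filter's minimum of 0.409 CPM, and 2 of 6 DMSO libraries did. Hdac11 shares exon bases with genes on the opposite strand, 96 with Gm14573 and 594 with Gm44002, and the strand setting of the counting is not given, so its counts may hold reads of these.

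Hdac9 (chr12:34047580-34917095, minus strand) was at 0.277, 0.352 and 0.591 CPM in DMSO and at 0.464, 1.28 and 1.79 in EZH2i. The ranges overlapped through EZH2i libraries 6 and 1, at 0.464 and 0.556 CPM. The summed counts were 55 and 189, and the log2 fold change was 1.54 (SE 0.37, adjusted p = 0.00958). In EZH2i, the dendritic cell gene Itgax was at 0.774 to 2.87 CPM, a level like that of Hdac11 and Hdac9. The other genes of that list reached at most 0.802 CPM (Zbtb46), 0.0946 (Siglech) and 0.0864 (Flt3) in EZH2i. In DMSO these reached 0.442, 0.173 and 0.11. The NK cell gene Klrb1c was above that level, at 3.72 to 9.26 CPM in EZH2i. Klre1 of the same list did not rise (3.05 to 4.31 CPM in DMSO and 2.72 to 4.29 in EZH2i). Ncr1 was at 0.119 or less in every library. The part of such cells in the change of Hdac11 and Hdac9 was not tested.

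Hdac4 (chr1:91928779-92195699, minus strand) was at 22.2, 23.8 and 27.6 CPM in DMSO and at 27.3, 30.5 and 34.2 in EZH2i. The groups overlapped through DMSO library 1 (27.6) and EZH2i library 6 (27.3). The log2 fold change was 0.34 (SE 0.08, adjusted p = 0.00889). The call held in all 20 alternative fits, with values of 0.31 to 0.41. It shares 3536 exon bases with Gm26720 on the opposite strand.

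Hdac7 and Hdac5, the other class IIa members, were not called. Hdac7 was at 583 ± 81.9 CPM in DMSO and 618 ± 118 in EZH2i (log2 fold change 0.08, adjusted p = 0.728), and Hdac5 at 99.6 ± 22.2 and 111 ± 27.9 (0.15, adjusted p = 0.669, or 0.0324 with the block). Per kilobase of merged exons, Hdac7 made up 87.0% of the class IIa level in DMSO and 86.2% in EZH2i, while Hdac4 rose from 1.54 to 1.96 and Hdac9 from 0.0267 to 0.0800 CPM per kilobase. The calls in class IIa therefore concerned the members with a small share of its RNA.

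Class I deacetylases include the catalytic units of the NuRD, Sin3 and CoREST complexes. None of 4 was called by edgeR by group alone with TMM scaling (1 lower at an unadjusted p under 0.05). Hdac1 was at 204, 236 and 239 CPM in DMSO and 194, 206 and 223 in EZH2i (log2 fold change -0.16, SE 0.06, adjusted p = 0.0731). It was called lower with the block (adjusted p = 0.0151), without the libraries numbered 6 (0.0424), with RLE scaling and by DESeq2. Hdac3 changed by -0.13 (adjusted p = 0.185) and Hdac2 by -0.10 (0.717). The class IIb enzymes Hdac6, a tubulin deacetylase, and Hdac10 were at -0.01 and 0.06 (adjusted p = 0.956 and 0.607).

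**Figure D3:**
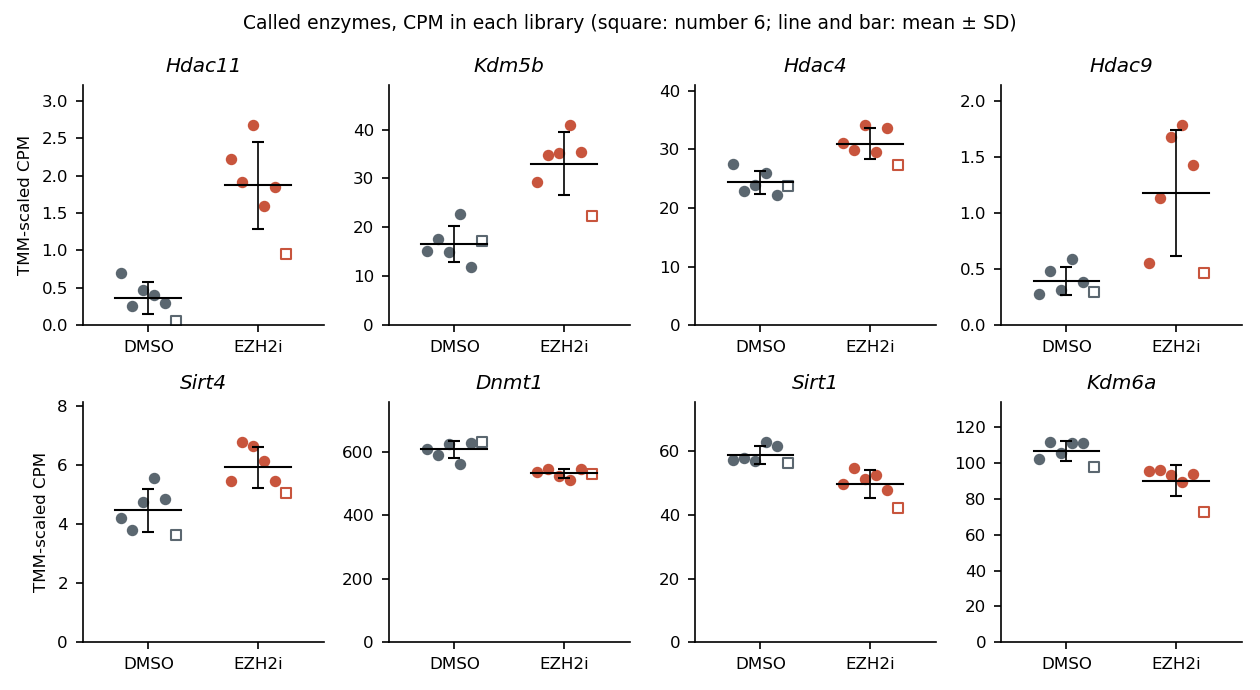
TMM-scaled CPM in each of the 12 libraries for the 8 called enzymes, 1 panel each, with axes from 0. Points are libraries, open squares are the libraries numbered 6, and the line and bar are the mean ± SD of 6 libraries. Hdac11, Dnmt1, Sirt1 and Kdm6a do not overlap between DMSO and EZH2i, while the others overlap by 1 or more libraries.

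The sequences before the start sites of 4 of the 5 enzymes called higher are shown because PRC2 is found mainly at promoters rich in CG dinucleotides in mammalian cells. They are from RefSeq (GRCm38.p6), 5′ to 3′ on the strand of the gene, with CG in capitals, and hold no annotated exon of that gene.
Hdac11 (chr6:91156565-91156664, plus strand): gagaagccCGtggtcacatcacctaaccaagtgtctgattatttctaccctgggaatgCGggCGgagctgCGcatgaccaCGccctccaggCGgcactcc
Hdac9 (chr12:34917096-34917345, minus strand): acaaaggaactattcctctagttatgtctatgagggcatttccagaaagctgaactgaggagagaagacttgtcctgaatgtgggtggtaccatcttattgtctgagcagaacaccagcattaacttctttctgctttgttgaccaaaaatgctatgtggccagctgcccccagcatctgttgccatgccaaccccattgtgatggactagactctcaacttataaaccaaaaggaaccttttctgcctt
Kdm5b (chr1:134559928-134560170, plus strand): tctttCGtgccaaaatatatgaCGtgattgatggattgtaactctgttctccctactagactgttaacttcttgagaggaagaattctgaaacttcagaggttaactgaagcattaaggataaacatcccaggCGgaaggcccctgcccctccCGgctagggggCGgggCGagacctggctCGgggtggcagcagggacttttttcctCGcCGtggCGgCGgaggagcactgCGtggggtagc
Hdac4 (chr1:92180342-92180591, minus strand, before a start inside the gene span given above): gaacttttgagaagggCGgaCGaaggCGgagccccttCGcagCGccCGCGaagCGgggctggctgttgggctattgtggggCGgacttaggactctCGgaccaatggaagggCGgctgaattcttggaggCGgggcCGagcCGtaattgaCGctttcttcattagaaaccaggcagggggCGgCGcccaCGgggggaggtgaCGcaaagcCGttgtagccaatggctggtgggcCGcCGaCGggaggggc
The 300-base window of Hdac4 (250 bases before the start and the rest after it) held 32 CG, a number reached by 9.5% of all 32851 windows. Hdac11 had 22 (reached by 23.1% of windows) and Kdm5b 17 (31.4%). The first of the windows of Hdac9 held 0, and a start within the gene had 3 (76.7%). The 4 promoters thus ran from no CG to a CG-rich window, and the median of the richest window per gene was 24 for 73 tested enzymes and 22 for 8996 tested genes. These counts describe the letters and no binding was measured.

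Sirtuins are NAD-dependent deacylases, of which Sirt1 acts mainly in the nucleus on histones and transcription factors and Sirt4 in mitochondria. Of 7, Sirt4 rose and Sirt1 fell. Sirt1 (chr10:63319005-63381704, minus strand) was at 56.3, 57.5 and 63.0 CPM in DMSO and 42.1, 50.6 and 54.7 in EZH2i. Every EZH2i library was below every DMSO library. The log2 fold change was -0.24 (SE 0.07, adjusted p = 0.0272). Sirt1 shares 65 exon bases with Gm16145 on the opposite strand. The call was lost with upper-quartile scaling (adjusted p = 0.112), with library totals alone (0.104) and without EZH2i library 5 (0.0605).

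Sirt4 (chr5:115478010-115484725, minus strand) was at 3.63, 4.47 and 5.55 CPM in DMSO and 5.05, 5.80 and 6.78 in EZH2i. The groups overlapped, and EZH2i was higher in 6 of 6 same-numbered pairs. The log2 fold change was 0.41 (SE 0.13, adjusted p = 0.0455). The call held in 9 of 20 alternative fits and was lost when any library but DMSO 4 or EZH2i 6 was left out. Sirt4 lies in the lowest expression bin, where 30% of all tested genes were called higher. Sirt2, Sirt3, Sirt5, Sirt6 and Sirt7 had adjusted p-values from 0.158 to 0.966.

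Lysine demethylases remove methyl groups from histones, and Kdm6a (UTX) and Kdm6b (JMJD3) are among those that act on H3K27, opposite to EZH2. Of 17 tested, Kdm5b rose and Kdm6a fell. Kdm5b (chr1:134560171-134635285, plus strand) removes methyl groups from H3K4, a mark of active promoters. It was at 11.8, 16.2 and 22.7 CPM in DMSO and 22.2, 35.0 and 41.0 in EZH2i. The overlap was of 1 library on each side, DMSO 4 (22.7) and EZH2i 6 (22.2). The means were 16.6 ± 3.63 and 33.0 ± 6.44 CPM (SD, n = 6), a log2 fold change of 0.99 (SE 0.16, adjusted p = 0.000933). The call held in all 20 alternative fits, from 0.90 to 1.10. In the fit by group alone its size was just under the 2-fold limit. Kdm5b made up 0.645% of the Kdm level per kilobase in DMSO and 1.24% in EZH2i. Its relatives Kdm5a and Kdm5c, at higher levels, changed by -0.09 and 0.02 (adjusted p = 0.541 and 0.871).

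Kdm6a (chrX:18162575-18279936, plus strand) was at 97.8, 108 and 112 CPM in DMSO and 72.6, 93.2 and 96.0 in EZH2i. Every EZH2i library was below every DMSO library. The log2 fold change was -0.24 (SE 0.07, adjusted p = 0.0358), with -0.21 (adjusted p = 0.00234) without the libraries numbered 6. The call was lost with upper-quartile scaling (adjusted p = 0.136), with library totals alone (0.121), and without DMSO library 2, 4 or 5 or EZH2i library 3 or 5 (0.0529 to 0.0634). Kdm6b was at 15.6 ± 2.72 and 17.6 ± 2.26 CPM (0.18, adjusted p = 0.355) and was called higher without the libraries numbered 6 (0.28, adjusted p = 0.0358).

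Further demethylases were called higher with the block. Kdm2b, which removes methyl groups from H3K36 and is a subunit of a Polycomb repressive complex 1 variant, was at 56.2, 82.4 and 84.5 CPM in DMSO and 62.8, 107 and 116 in EZH2i. Both lowest values were libraries numbered 6, and without these the groups did not overlap. It shares 627 exon bases with Rnf34 on the opposite strand. Its log2 fold change was 0.38 (SE 0.14, adjusted p = 0.0803, or 4.63e-05 with the block). Kdm3b (0.18), Kdm7a (0.23) and Kdm4d (0.67) were likewise called higher with the block (adjusted p = 0.00969, 0.0266 and 0.00505) and not in the fit by group alone (0.278, 0.340 and 0.317). In all, 5 of 17 were higher (29.4%, beside 24.7% of all tested genes) and 1 lower (5.88%, beside 24.3%) with the block. Without the libraries numbered 6, where Kdm4b and Kdm6b joined, 7 were higher (41.2%, beside 23.9%) and 1 lower (5.88%, beside 20.9%). No test was made of the family. Kdm1a (LSD1), which demethylates H3K4 in the CoREST complex, was at 83.3 and 87.2 CPM (0.07, adjusted p = 0.639). Kdm5d had 12 counts, all in the libraries numbered 6, and was not tested.

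Of the 40 tested writers, none was called in either direction by edgeR with the group alone (2 higher and 3 lower at an unadjusted p under 0.05), and DESeq2 called Setd6 lower. With the block, 4 were higher (10%, beside 24.7% of all tested genes) and 10 lower (25%, beside 24.3%). Without the libraries numbered 6, 3 were higher (7.5%, beside 23.9%) and 10 lower (25%, beside 20.9%). Counts with the block for the families below stand beside the same 24.7% and 24.3%. The median log2 fold change of the writers was -0.068, beside 0.065 for the 35 tested erasers, and with library totals alone 0.00 beside 0.13. No test was made of the difference between writers and erasers. Roles were given by family. Sirt4, which acts in mitochondria, was thus counted among the erasers, and Setd6, which methylates a subunit of NF-kB, among the writers.

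**Figure D4:**
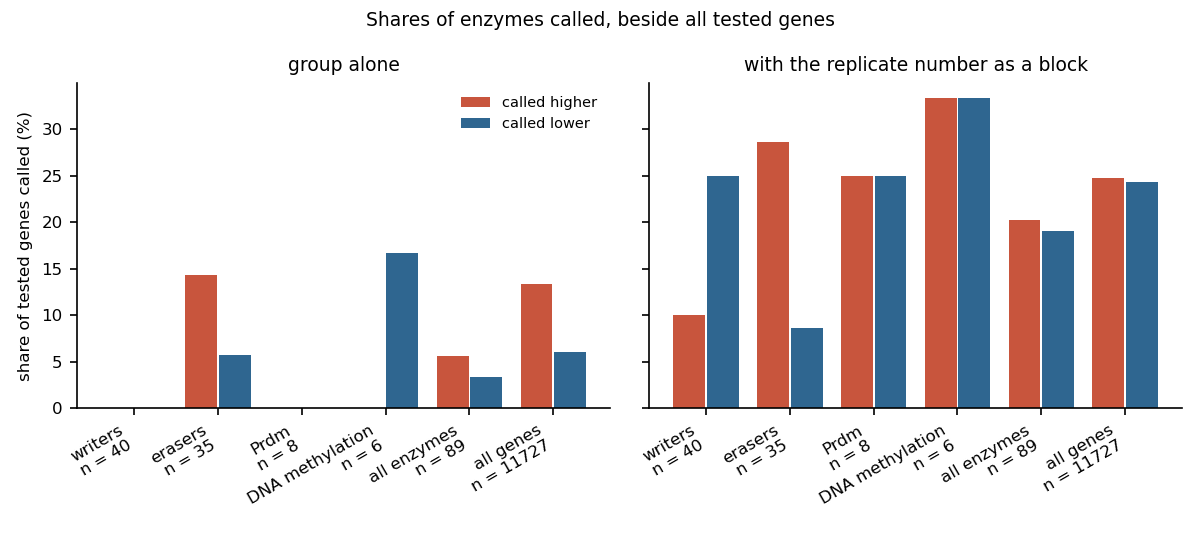
Share of tested enzymes called higher (red) and lower (blue) by role, beside all tested genes, in percent on axes from 0. The left panel is the fit by group alone, the right panel the fit that has the replicate number as a block. In the left panel the writers have no bar. In the right panel 10% of the 40 writers are higher and 25% lower, beside 24.7% and 24.3% of all tested genes.

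Setd6, which methylates the RelA subunit of NF-kB, was closest to a call among the writers. It was at 11.7, 15.4 and 27.9 CPM in DMSO and 7.57, 9.56 and 18.0 in EZH2i. The ranges overlapped through the libraries numbered 6, the highest of each group, and EZH2i was lower in 6 of 6 same-numbered pairs. The log2 fold change was -0.71 (SE 0.24, adjusted p = 0.0535), with adjusted p = 3.07e-06 with the block and 4.97e-05 without the libraries numbered 6.

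Arginine methyltransferases put methyl groups on arginines of histones and RNA-binding proteins. None of 7 tested was called by group alone or by DESeq2 (1 higher and 0 lower at an unadjusted p under 0.05), while 1 was higher and 3 lower with the block. Prmt5, the main symmetric dimethylase, was at 90.9, 123 and 240 CPM in DMSO and 79.6, 92.5 and 202 in EZH2i. The highest library of each group was number 6, and EZH2i was lower in 6 of 6 pairs. Its log2 fold change was -0.31 (SE 0.26, adjusted p = 0.462), with adjusted p = 9.09e-05 with the block. Prmt1, the main asymmetric dimethylase, was at 87.1 and 76.6 CPM (-0.18, adjusted p = 0.741, or 0.0099 with the block), with 4 of 6 pairs lower. Prmt2 was at 5.87 and 7.66 CPM (0.38, adjusted p = 0.127, or 0.00443 with the block).

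Acetyltransferases had no call of 7 by group alone or DESeq2 (0 higher and 1 lower at an unadjusted p under 0.05), and 3 were lower with the block. Kat2a (GCN5), the catalytic unit of the SAGA and ATAC complexes, was at 58.0, 74.8 and 139 CPM in DMSO and 50.4, 59.9 and 118 in EZH2i, again with library 6 at the top of both groups. It changed by -0.28 (SE 0.24, adjusted p = 0.468), and with the block the adjusted p was 0.000937. Its relative Kat2b (PCAF) changed by -0.21 (adjusted p = 0.166, or 0.00722 with the block), and Kat5 (TIP60), the acetylase of the NuA4 complex, by -0.23 (0.105, or 0.00832). Kat6a, Kat6b, Kat7 and Kat8 had adjusted p-values of 0.431 to 0.847 in the fit by group alone.

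Methyltransferases of H3K4, the mark laid opposite to Polycomb, had no call of 8 by edgeR (1 higher and 0 lower at an unadjusted p under 0.05) or DESeq2, and 1 higher and 1 lower with the block. Kmt2a (MLL1) was at 166 and 167 CPM (0.01, adjusted p = 0.922), Kmt2d at 98.8 and 92.7 (-0.09, 0.405) and Kmt2c at 90.2 and 102 (0.18, 0.154, or 0.0489 with the block). Setd1b was at 52.9 and 46.9 (-0.17, 0.226, or 0.0261 with the block). The H3K9 methyltransferases, which mark heterochromatin, had no call of 4 by edgeR (0 at an unadjusted p under 0.05) or DESeq2. Ehmt2 (G9a) was at 196 ± 35.9 and 197 ± 26.4 CPM (0.00, adjusted p = 0.986), Ehmt1 (GLP) changed by -0.07 (0.519), Suv39h1 by -0.11 (0.232, or 0.0447 without the libraries numbered 6) and Suv39h2 by -0.09 (0.816). For Ehmt1, Ehmt2 and Suv39h2 the means differed by less than the SD of either group.

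The H3K36 methyltransferases Setd2 and Nsd1 changed by -0.06 and -0.08 (adjusted p = 0.687 and 0.424). Setd8, which places the first methyl group on H4K20 and is used in the cell cycle, was at 146, 191 and 216 CPM in DMSO and 139, 166 and 179 in EZH2i. The groups overlapped, and EZH2i was lower in 6 of 6 pairs. It changed by -0.21 (SE 0.09, adjusted p = 0.126, or 0.00358 with the block, and 0.0701 without the libraries numbered 6). Of 5 Smyd genes, 0 were called by edgeR by group alone (0 at an unadjusted p under 0.05) or DESeq2, and 2 were higher and 1 lower with the block. Smyd2 changed by 0.29 (adjusted p = 0.671, or 0.0464 with the block) and Smyd3 by 0.20 (0.643, or 0.0359), and neither was called without the libraries numbered 6. Smyd1, known from muscle, was at 4.52 and 3.58 CPM (-0.34, adjusted p = 0.352, or 0.0377 with the block).

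Prdm genes encode zinc finger proteins with a domain related to SET, some of them methyltransferases. Of 13, 8 were tested and 0 were called by edgeR (1 higher and 1 lower at an unadjusted p under 0.05), and 1 and 1 by DESeq2. With the block 2 were higher and 2 lower, and without the libraries numbered 6, 2 and 1. Prdm9 was at 6.99 and 9.01 CPM (0.36, SE 0.18, adjusted p = 0.17, or 0.027 with the block). Prdm16 was at 3.27 and 2.06 CPM (-0.66, SE 0.26, adjusted p = 0.0928, or 0.00243 with the block).

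The 5 untested Prdm genes had few counts: Prdm8 had 5 in DMSO and 10 in EZH2i, Prdm13 and Prdm14 each had 0 and 4, Prdm12 had 1 and 0, and Prdm6 had 0 and 0. Prmt8 had 0 and 0 counts and Dnmt3l 2 and 4. No member left untested reached 30 counts.

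For DNA methylation, the maintenance enzyme fell slightly. Dnmt1 (chr9:20907209-20959888, minus strand), which copies methylation to the new DNA strand after replication, was at 562, 617 and 632 CPM in DMSO and 512, 533 and 547 in EZH2i. Every EZH2i library was below every DMSO library. The means were 608 ± 27.2 and 532 ± 13.3 CPM (SD, n = 6), a log2 fold change of -0.19 (SE 0.05, adjusted p = 0.0158). The call was lost with upper-quartile scaling (-0.13, adjusted p = 0.087) and library totals alone (-0.12, 0.105), and held in the other 18 alternative fits. Per kilobase, Dnmt1 made up 91.6% of the Dnmt level in DMSO and 90.0% in EZH2i.

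Dnmt3a and Dnmt3b methylate DNA anew. Dnmt3a was at 73.4 ± 4.99 and 71.2 ± 3.20 CPM (-0.04, adjusted p = 0.673). Dnmt3b was at 13.7, 15.3 and 21.4 CPM in DMSO and 15.9, 18.0 and 26.2 in EZH2i, with library 6 highest in both. It was higher in 6 of 6 pairs, by 0.24 (SE 0.14, adjusted p = 0.246, or 0.00947 with the block and 0.0229 without the libraries numbered 6).

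Tet oxygenases start the removal of DNA methylation, and of 3 none was called by edgeR (1 lower at an unadjusted p under 0.05) or DESeq2. Tet3 was at 74.5, 84.2 and 91.6 CPM in DMSO and 66.8, 71.8 and 84.8 in EZH2i. The groups overlapped, and EZH2i was lower in 6 of 6 pairs (-0.18, SE 0.07, adjusted p = 0.0978, or 0.0131 with the block). Tet2 was at 33.5 and 34.8 CPM (0.05, adjusted p = 0.721) and Tet1 at 8.83 and 10.3 (0.21, 0.479, or 0.0484 with the block). Per kilobase, Tet3 made up 66.3% of the Tet level in DMSO and 61.9% in EZH2i.

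In 16 of 89 tested enzymes (18%), a library numbered 6 lay at least 1 log2 unit from the mean of the other 5 in either group, a share near the 19.5% of all tested genes. In both groups at once, 7 of the 89 enzymes were that far above and 2 that far below, beside 571 and 501 of the 11727 tested genes. Smyd5 was 1.93 above in DMSO and 2.25 above in EZH2i, and Smyd2 1.49 and 1.85. Prmt1 was 1.18 and 1.56 above, Prmt3 1.15 and 1.53, and Prmt5 1.06 and 1.15. On the other side, Kdm4d was at -2.56 and -2.07 and Hdac11 at -1.79 and -1.02. The direction was the same in both groups for these, and they stand at the ends of the range over the enzymes. What sets these libraries apart was not tested.

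**Figure D5:**
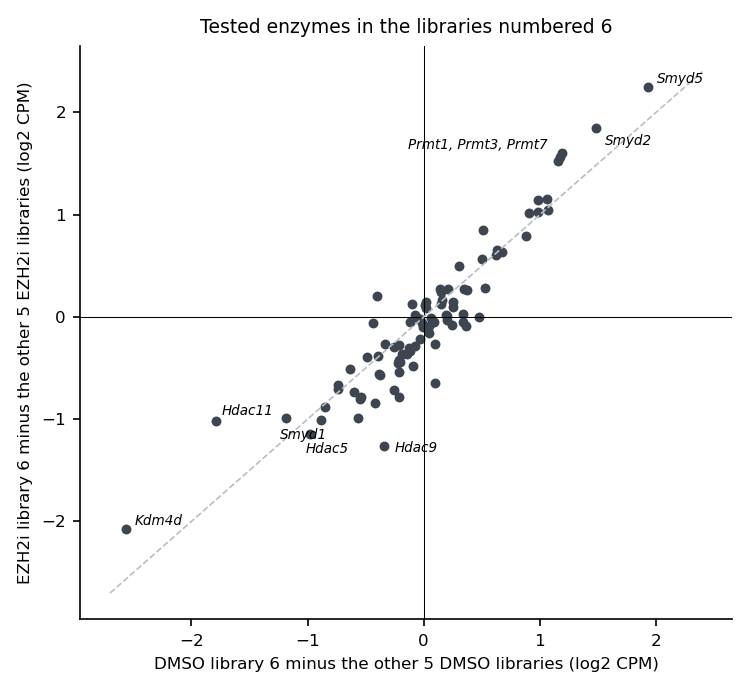
Deviation of the libraries numbered 6 from the mean of the other 5 libraries of their group, in log2 CPM, for each of the 89 tested enzymes: DMSO on the horizontal axis, EZH2i on the vertical. The dashed line marks equal values. Points at the upper right (Smyd5 at 1.93 and 2.25) and lower left (Kdm4d at -2.56 and -2.07) deviated in the same direction in both groups.

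Other genes of these pathways, named differently and listed by function, were read from the same fit. Of 104 in the files, 100 were tested, and 7 were called higher and 15 lower, or 17 and 37 with the block. Over all tested genes the shares were 13.3% and 6.05%, and 24.7% and 24.3% with the block, and the counts of the shorter lists are given as descriptions only. By group alone these shares differ with level. From 30.5 to 77.7 CPM, 5.8% of all tested genes were higher and 7.88% lower, and in the highest bin 3.44% and 11.7%. Paxip1, Men1 and Ash2l, named below, lie in these bins. Their median log2 fold change was -0.08. Partners of H3K4 methyltransferases (COMPASS and MLL complexes) had 4 of 11 lower and 0 higher (0 at an unadjusted p under 0.05 and by DESeq2), or 7 lower with the block. Paxip1 was at 129 ± 11.4 and 104 ± 9.24 CPM (-0.31, adjusted p = 0.0139), Men1 at 97.7 and 81.4 (-0.26, 0.0466) and Ash2l at 82.0 and 69.4 (-0.24, 0.0193). With upper-quartile scaling or library totals alone, 1 of these 11 was lower.

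Among corepressor partners of deacetylases and demethylases, 1 of 23 rose and 3 fell, or 3 and 7 with the block. Rcor2, a CoREST scaffold that binds Kdm1a and Hdac1, rose from 1.56 ± 0.367 to 4.03 ± 0.873 CPM (1.37 on the log2 scale, adjusted p = 0.000276). That level lies in the lowest expression bin, where 30% of all tested genes were called higher. The NuRD subunits Mta2, Mbd2 and Chd4 fell: Mta2 from 353 ± 17.9 to 272 ± 13.5 CPM (-0.37, adjusted p = 0.000445), Mbd2 by -0.26 (0.00871) and Chd4 by -0.16 (0.0348). Acetyltransferase partners had 3 of 23 lower and 0 higher (0 at an unadjusted p under 0.05 and by DESeq2), namely Meaf6 (-0.43, adjusted p = 0.00165), Ing3 (-0.29, 0.0498) and Ing1 (-0.25, 0.0363). With the block 11 of the 23 were lower.

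DNA methylation partners and readers had 3 of 13 higher and 2 lower, or 5 and 3 with the block. Uhrf1, which recruits Dnmt1 to newly copied DNA, fell from 405 ± 43.5 to 303 ± 24.2 CPM (-0.42, SE 0.08, adjusted p = 0.00229), in the direction of Dnmt1. Mbd1 changed by -0.26 (0.0161). Cxxc5, a CG-binding protein, rose from 6.64 ± 1.73 to 17.7 ± 5.52 CPM (1.41, adjusted p = 0.00251), Zbtb4, a reader of methylated DNA, from 21.7 to 35.1 (0.70, 2.4e-05) and Gadd45a from 2.93 to 4.54 (0.63, 0.0435). Further modifying enzymes under other names had 3 of 24 higher and 2 lower, or 8 and 6 with the block. The acetyltransferase coactivator Ncoa1 (0.55, adjusted p = 0.00129), the demethylase Hr (1.27, 0.00914) and the H3K36 methyltransferase Ash1l (0.27, 0.016) rose. Mina (-0.38, 0.00264) and Setdb2 (-0.29, 0.00691) fell. Hr was low, at 0.450 CPM in DMSO and 1.09 in EZH2i. These levels, like those of Gadd45a, fall in the lowest expression bin, where 30% of all tested genes were called higher. Of 6 H3K9 readers, Cbx3 fell (-0.23, adjusted p = 0.0312), and 3 were lower with the block. With upper-quartile scaling or library totals alone, the lower calls in these lists were 2 further modifying enzymes, 2 corepressor partners, 1 acetyltransferase partner, 1 DNA methylation partner and 0 H3K9 readers (1 at an unadjusted p under 0.05). Of 11 PRC2 subunits, Jarid2 rose from 36.4 to 49.0 CPM (0.43, adjusted p = 0.00227) and 0 fell by group alone. At an unadjusted p under 0.05 there were 3 higher and 5 lower, by DESeq2 1 and 3, and with the block 3 and 5.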

How the data were processed

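Polyadenylated RNA (500 ng) of 12 libraries was sequenced with a stranded TruSeq kit as 75-base single-end reads, per the labels. The authors deposited raw read counts per gene symbol. The submitters' processing notes name FastQC 0.11.7, Trimmomatic 0.38, SAMtools 1.9, TopHat2 2.1.1 and featureCounts, and GRCm38 (mm10). For the annotation, the strand setting and reads with several matches, the choice is not given in the sources used here, so overlapping and antisense genes are uncertain.

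The counts were fitted with edgeR 4.0.16 in R 4.3.3 (filterByExpr at its defaults, 11727 genes kept, TMM scaling, quasi-likelihood test, two-sided, group alone) and limma 3.58.1, after the fit was tested on simulated data. The simulated data held no shift shared by same-numbered libraries, so that trial says nothing of how the fit handles such a shift. Calls are at an adjusted p under 0.05 (Benjamini-Hochberg, over all tested genes). Log2 fold changes are EZH2i against DMSO, and their SE is the size divided by the square root of F. DESeq2 1.42.0, other scalings and filters, a fold limit, the replicate number as a block and leaving out libraries were alternatives. The fold limit (1 on the log2 scale) is a cut on size and is not among the 20 alternative fits counted for an enzyme. The enzymes, families and partner lists were chosen with earlier results of these data known. Named with values were the called enzymes, the smallest p of each family without a call, a fixed set of well-known enzymes and up to 3 called partners per list. For 1 gene of the set, counted in all totals, no values are reported here. Other genes named (Hdac5, Hdac6, Kat2b, Kdm2b, Kdm3b, Kdm4d, Kdm5a, Kdm5c, Kdm7a, Prdm9, Prdm16, Setd1b, the remaining sirtuins and Kat genes, Smyd2, Smyd3, Smyd5, Prmt3, Prmt7, Chd4, Uhrf1, Mbd1, Ash1l and Setdb2) were chosen after their values were seen.

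The labels give both groups the numbers 1 to 6 without saying what a number stands for. Across genes, the deviations of a number's 2 libraries from the means of their groups correlated for all 6 numbers (r from 0.213 to 0.847). This was above the limit of 0.1, so blocked values are printed for most enzymes whose call the block changes. The pairing comes from the data. Without number 6 the lowest r was 0.0371, for number 5, which is below that limit. Gene positions and merged exons are from GENCODE M21 for GRCm38, in which all 97 symbols matched (4 under newer symbols), and promoter sequences from RefSeq, which held 79 of the 97.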

Additional observations from a re-analysis of the deposited data

Results flagged for a closer look

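In 25 of 74 groups of 6 libraries of the named enzymes, 1 library lay far from the other 5 by Dixon's criterion (a gap over range above 0.625), and 23 of these were libraries numbered 6. Chance flags about 1 in 20 groups. Over all 89 tested enzymes it was 64 of 178 groups (36%), 61 of them number 6, beside 29.3% over all tested genes.

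In DMSO, library 6 was far above the others for Prmt5 (240 CPM, the others 90.9 to 130), Prmt1 (162, others 65.4 to 78.5), Kat2a (139, others 58.0 to 83.3), Hdac2 (129, others 69.4 to 87.8), Setd6 (27.9, others 11.7 to 17.7), Dnmt3b (21.4, others 13.7 to 16.3) and Suv39h2 (19.4, others 9.43 to 12.2). It was far below for Hdac7 (420, others 585 to 643), Tet1 (5.24, others 8.73 to 10.7), Prmt2 (3.75, others 6.18 to 6.38) and Smyd1 (2.14, others 4.23 to 5.42).

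In EZH2i, library 6 was far above the others for Prmt5 (202 CPM, others 79.6 to 106), Prmt1 (170, others 48.2 to 65.6), Kat2a (118, others 50.4 to 62.7), Dnmt3b (26.2, others 15.9 to 19.0), Setd6 (18.0, others 7.57 to 9.99) and Suv39h2 (17.4, others 8.39 to 11.3). It was far below for Hdac7 (382, others 628 to 701), Ehmt2 (146, others 195 to 218), Setd2 (119, others 151 to 170), Kdm6a (72.6, others 89.5 to 96.0), Kat5 (43.0, others 52.0 to 55.8) and Tet1 (6.01, others 10.6 to 11.7).

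The remaining 2 were DMSO library 4 for Hdac1 (204 CPM, others 229 to 239) and EZH2i library 1 for Dnmt3a (65.0, others 71.4 to 73.7).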

How the results depend on the processing

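With the replicate block, 18 enzymes were higher and 17 lower (5 and 3 by group alone), and 17 and 37 partner genes (7 and 15). Without both libraries numbered 6 these were 18 and 16, and 20 and 23. The 1 CPM filter, which leaves out Hdac9 and Hdac11, gave 3 higher enzymes, the 2-fold limit 2 higher and 0 lower, and DESeq2 6 lower. Upper-quartile scaling and library totals alone each gave 0 lower enzymes and 7 lower partners, and moved the median of the enzymes from -0.009 to 0.053 and 0.059. Leaving out 1 library at a time gave 4 to 10 higher and 1 to 9 lower enzymes, and 6 to 12 higher and 8 to 20 lower partners. The libraries that moved a count by over 1.5 times were EZH2i 6 (10 higher and 9 lower enzymes, 12 higher partners), DMSO 4 (8 lower enzymes), EZH2i 5 (1 lower enzyme) and EZH2i 3 and 4 (9 and 8 lower partners). The cause of these shifts was not tested. RLE scaling and the fit with no filter beyond 1 count moved no count by over 1.5 times. No called enzyme changed direction under any alternative run. For the enzymes with few counts (Hdac9 and Hdac11), depth limits the precision, and of the 97 enzymes 8 were too low to test.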

Other observations

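Kdm5d, the Y-linked relative of Kdm5c, had 6 counts in DMSO library 6 and 6 in EZH2i library 6, and 0 in the other 10 libraries. The Y-linked genes Ddx3y, Eif2s3y and Uty, chosen after their values were seen, had 4, 8 and 1 counts in DMSO library 6, 6, 6 and 2 in EZH2i library 6, and 0 in the others.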
